A study of Bos taurus with 138 samples.

Results

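The PIWI and piRNA pathway genes described here are 10 protein-coding genes, taken by symbol from a table of 16706 genes measured in bovine (Bos taurus) oocytes and preimplantation embryos. They comprise the PIWI family genes PIWIL1, PIWIL2 and PIWIL3, the processing genes PLD6, MOV10L1, TDRD9, TDRKH, ASZ1 and TDRD1, and MAEL. All 10 were in the table and all 10 passed the filter on low counts. The groups were 6 developmental stages, GV oocytes, MII oocytes, 2-cell embryos, 8-cell embryos, morulae and blastocysts, and none carried a treatment or a genetic change. Oocytes came from ovaries collected at a slaughterhouse, were matured in vitro and fertilized with semen of 1 bull, and every group was exposed to cycloheximide, which holds ribosomes on mRNA, and stripped of its zona pellucida before lysis. Each library represents a pool of oocytes or embryos. At each stage, 3 whole-transcriptome libraries (A, B and C) and 2 sucrose gradients (A and B) of 10 fractions each were sequenced, which gives 18 transcriptomes and 120 fraction libraries. RNA carrying more ribosomes sediments further, and the study classed F1 and F2 as free RNA, F3 to F5 as monosomes, F6 and F7 as intermediate and F8 to F10 as polysomes.

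piRNAs are small RNAs of the animal germline that are bound by PIWI proteins and guide them to complementary transcripts, above all those of transposable elements. Long precursor transcripts are unwound and cut at the outer membrane of mitochondria, loaded onto a PIWI protein and matured, and Tudor-domain proteins hold these steps together by binding methylated arginines of PIWI proteins. Oocytes of many mammals express PIWIL3, a family member that the mouse genome lacks.

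Transcriptomes held 3269386 to 11812567 counts and fraction libraries 1229382 to 17342859. Between 10311 and 12641 genes reached 5 counts in a transcriptome and between 2489 and 12789 in a fraction library, and the fraction libraries with the fewest such genes came from MII oocytes, 8-cell embryos, morulae and blastocysts. The summed level of 5 oocyte markers (GDF9, BMP15, ZP2, ZP3 and ZP4) in the transcriptomes lay between 17155 and 20225 CPM in GV oocytes, between 297 and 614 in 8-cell embryos and between 28.0 and 102 in blastocysts. The sum of 5 blastocyst markers (CDX2, GATA3, KRT8, KRT18 and NANOG) lay between 42.4 and 51.0 CPM in GV oocytes. It lay between 251.5 and 289.6 CPM in 8-cell embryos and between 4744 and 5434 in blastocysts. The study describes NANOG as highly transcribed at the middle one of these stages and much less so elsewhere. The sum does not show NANOG on its own. Summed sperm markers (7 genes, among them the protamines PRM1 and PRM2) reached at most 14.1 CPM in any transcriptome.

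Levels of transcriptomes and of polysome pools, the summed counts of F8 to F10 of a gradient, are given as CPM, counts divided by library size, after TMM scaling over these 30 libraries. Counts were not divided by transcript length, so levels are compared across samples and not between genes. The exception is a ranking by mean level that chose which further genes to name, and that ranking depends on transcript length as well. CPM is relative to all RNA of a library, and in these pools fewer cells with a transcript and less of it per cell cannot be told apart. A change between stages was called where the adjusted p of edgeR's quasi-likelihood test was below 0.05 and the fold change above 2.

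**Figure D1:**
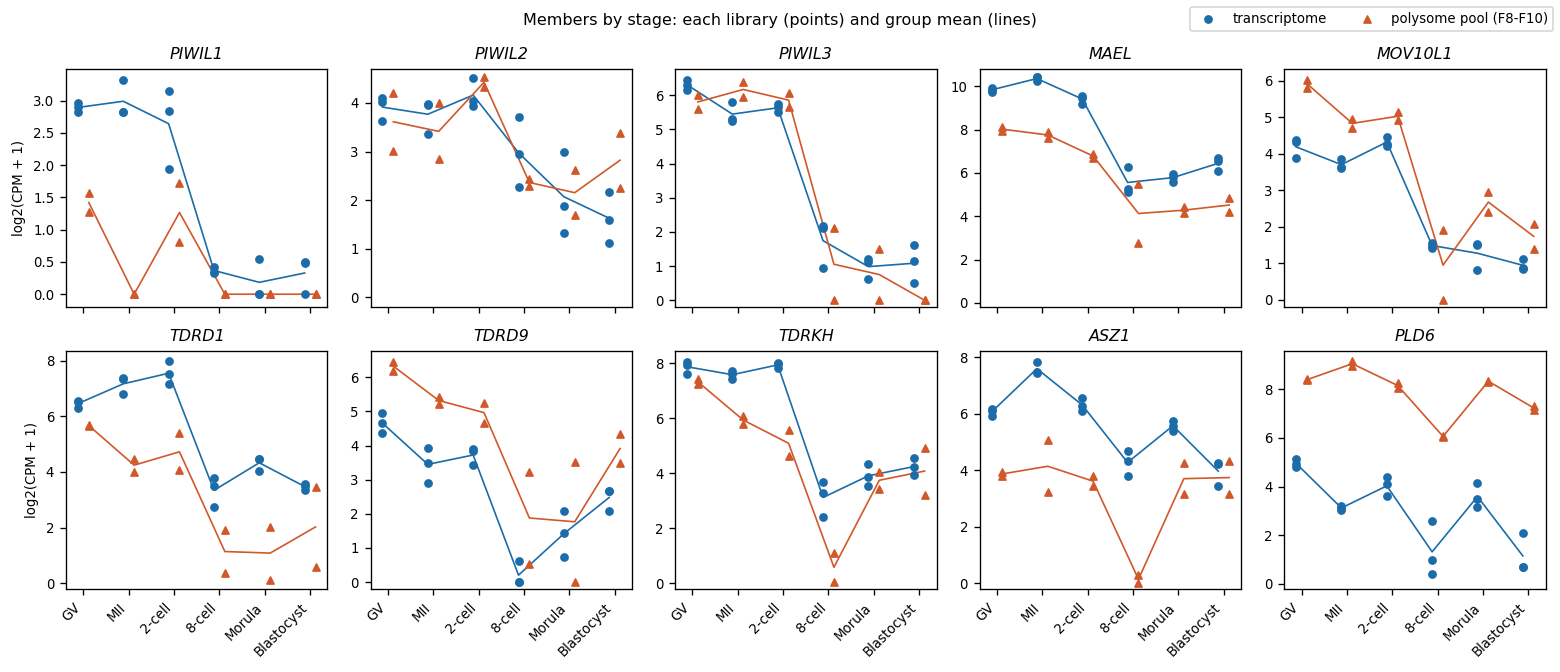
Level of each of the 10 genes at the 6 stages as log2(CPM + 1), with 1 blue point per transcriptome (n = 3), 1 orange triangle per polysome pool of F8 to F10 (n = 2) and lines through the group means. Most members are high from GV oocytes to 2-cell embryos and low from 8-cell embryos on, and PLD6 is the only panel in which both pools lie above all 3 transcriptomes at every stage.

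In the PIWI family, PIWIL3 was measured at 86.4, 70.1 and 78.5 CPM in the GV transcriptomes, 54.5, 38.4 and 36.9 at the MII stage and 52.3, 49.2 and 44.5 at the 2-cell stage. By the 8-cell stage it stood at 0.943, 3.32 and 3.48 CPM, followed by 1.31, 0.536 and 1.19 in morulae, while blastocysts held 2.06, 0.415 and 1.2. The first 3 stages and the last 3 did not overlap. PIWIL1 ran from 2.86 to 9.04 CPM in the 9 libraries of the first 3 stages and from 0 to 0.467 in the 9 libraries of the later stages, where it rested on 10, 5 and 4 reads per stage in 8-cell embryos, morulae and blastocysts. PIWIL2 differed from both, since its early range of 9.27 to 21.7 CPM overlapped its late range of 1.18 to 12.01. Its 3 values in 8-cell embryos were 3.86, 12.01 and 6.70 CPM, and those in blastocysts were 1.18, 3.52 and 2.00.

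PLD6 encodes the phospholipase D family nuclease that cuts piRNA precursors at mitochondria. Its transcriptome level was 34.0, 26.9 and 29.3 CPM at the GV stage, 7.33, 7.70 and 8.09 at the MII stage and 16.1, 11.2 and 19.9 at the 2-cell stage. The 8-cell libraries held 0.343, 4.93 and 0.957 CPM, the morula libraries 7.84, 16.6 and 10.2, and the blastocyst libraries 3.23, 0.622 and 0.600. PLD6 was thus highest in GV oocytes and lowest in 8-cell embryos and blastocysts, with morulae inside the range of MII oocytes and 2-cell embryos.

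MOV10L1 encodes the RNA helicase that feeds precursors into processing, and TDRD9 a helicase with a Tudor domain that acts with PIWI proteins in transposon silencing. MOV10L1 ran from 11.3 to 21.2 CPM in the early stages and from 0.747 to 1.97 in the later ones. TDRD9 was at 29.7, 24.1 and 19.8 CPM at the GV stage, 14.3, 10.2 and 6.54 at the MII stage and 9.74, 13.3 and 14.0 at the 2-cell stage. The 8-cell libraries held 0, 0 and 0.522 CPM, 6 reads in all. In blastocysts TDRD9 was at 3.23, 5.39 and 5.402 CPM, above every 8-cell library. In the RefSeq annotation of bovine assembly ARS-UCD2.0, MOV10L1 overlaps 3 other genes and TDRD9 overlaps 1, RD3L. The library kit does not mark strand, so reads from overlapping genes may be shared.

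TDRKH and ASZ1 encode proteins anchored at the mitochondrial surface where precursors are trimmed and loaded, and TDRD1 a multi-Tudor scaffold of PIWI proteins. TDRKH was at 258, 251 and 229 CPM in 2-cell embryos and at 4.28, 8.78 and 11.8 in 8-cell embryos, with early libraries between 172.6 and 267 and late ones between 4.28 and 22.6. TDRD1 ran from 77.7 to 250 CPM in the early stages and from 5.66 to 21.2 in the later ones. ASZ1 was at 59.3, 67.7 and 71.7 CPM at the GV stage, 180, 174 and 230 at the MII stage, 94.1, 75.8 and 67.8 at the 2-cell stage and 12.9, 24.8 and 19.3 at the 8-cell stage. The lowest early and highest late library of ASZ1 lay close together, since its morula values of 41.0, 53.3 and 46.9 CPM came close to those of GV oocytes.

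MAEL encodes an HMG-domain protein of the germline granules in which piRNAs are made. It was measured at 863, 912 and 975 CPM at the GV stage, 1372, 1204 and 1379 at the MII stage and 753, 716 and 591 at the 2-cell stage. Later libraries held 37.0, 77.7 and 34.2 CPM (8-cell), then 46.8, 55.7 and 60.9 (morula), then 93.2, 67.6 and 102 (blastocyst). All 9 early libraries lay above all 9 late ones.

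From 2-cell to 8-cell embryos, the interval that leads up to the major activation of the bovine embryonic genome, 9 of the 10 members fell in the transcriptome, against 23.5% of the 14612 genes in the model that were called lower. The median log2 fold change of the 10 members was -4.01, and that of all genes was 0.027. TDRD9 fell by 6.09 on the log2 scale (SE 1.34, adjusted p = 0.000614 by edgeR), TDRKH by 4.89 (SE 0.59, adjusted p = 3.48e-07) and TDRD1 by 4.32 (SE 0.86, adjusted p = 0.000204). PIWIL1 and PIWIL3 fell by 4.24 and 4.23, MAEL by 3.79, MOV10L1 by 3.40, PLD6 by 2.92 and ASZ1 by 2.06. PIWIL2 did not pass the test, with a log2 fold change of -1.19 (SE 0.61, adjusted p = 0.103). The 9 members stayed called when any single one of the 30 libraries was left out.

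**Figure D2:**
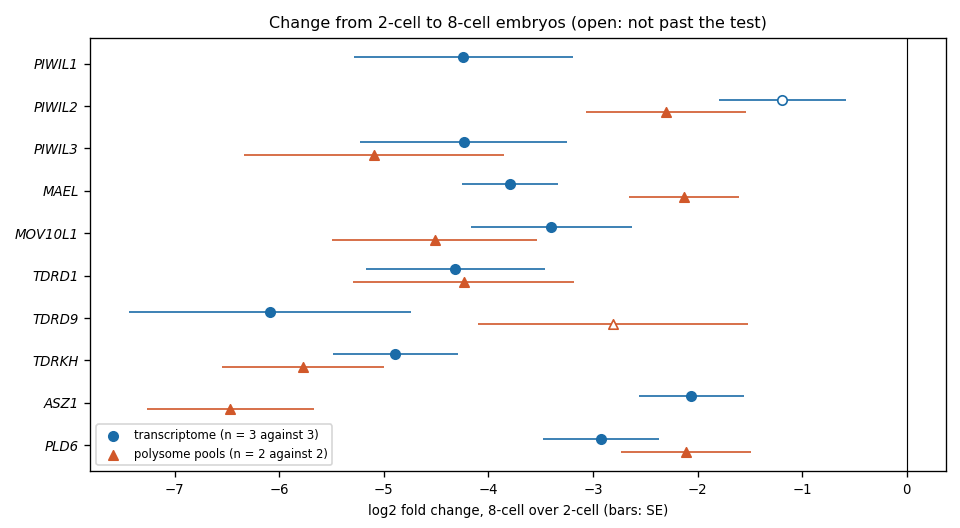
Log2 fold change from 2-cell to 8-cell embryos (x axis, bars are standard errors) for each gene in the transcriptome (blue circles, 3 against 3 libraries) and in polysome pools (orange triangles, 2 against 2), with open symbols where the test was not passed. Every value lies below 0, from -1.19 for PIWIL2 to -6.47 for ASZ1 in polysomes, and no polysome value is drawn for PIWIL1, which had no read in the 8-cell pools.

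The polysome pools gave a like count over the same interval, with 9 of 10 members lower against 25.2% of all genes. PIWIL3 was at 66.0 and 49.0 CPM in the 2-cell pools and at 0 and 3.31 in the 8-cell pools, a log2 fold change of -5.09 (SE 1.25, adjusted p = 0.00207). TDRKH was at 46.6 and 23.5 CPM and then at 0.041 and 1.17 (-5.77, SE 0.77, adjusted p = 2.55e-06), and ASZ1 at 9.87 and 12.8 CPM and then at 0 and 0.217 (-6.47, SE 0.80, adjusted p = 8.93e-07). The 8-cell pools of TDRKH held 1 and 43 reads and those of ASZ1 0 and 8, so the fall of both ended near the detection limit. PIWIL1 was at 0.751 and 2.31 CPM in the 2-cell pools and had no read in the 8-cell pools. It was at least 14.96-fold lower when 3 counts per pool are set as the floor. TDRD9 was the member that did not pass, at 24.5 and 37.1 CPM before and at 0.451 and 8.30 after (log2 fold change -2.81, SE 1.29, adjusted p = 0.0753). With PIWIL1 at its bound, the median of the members was -4.07, and that of all genes was -0.26. When polysome pools were fitted in a model of their own, 3 members were called lower in place of 9, namely TDRKH, ASZ1 and PLD6, and the share of all genes called lower was 6.95%. The estimates of the 5 other members with reads in both stages that lost their call there lay between -2.06 (MAEL) and -5.06 (PIWIL3). PIWIL2 (22.1 and 19.0 CPM before, 4.43 and 3.88 after) was also lost without 2-cell pool A or 8-cell pool B (adjusted p = 0.0553 and 0.0579).

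Over all 9 pairings of an early with a late transcriptome, which share samples, the members gave 79 calls of a lower late level in 90 tests and no call of a higher one. PIWIL1, PIWIL3, MAEL, MOV10L1, TDRD1 and TDRKH were lower in all 9 pairings. ASZ1 and PLD6 were lower in 7, PIWIL2 in 6 and TDRD9 in 5. The pairings without a call were those of PIWIL2 with 8-cell embryos, those of ASZ1 in GV oocytes and 2-cell embryos and of PLD6 in MII oocytes and 2-cell embryos with morulae, and 4 of TDRD9. From GV oocytes, 21.4%, 24.3% and 27.4% of all genes were called lower in the 3 late stages in order. From MII oocytes the shares were 20.2%, 24.6% and 27.6%, and from 2-cell embryos 26.4% in morulae and 28.1% in blastocysts. After the 8-cell stage, TDRD9 was higher again in blastocysts than in 8-cell embryos (log2 fold change 4.70, SE 1.32, adjusted p = 0.0068) and PIWIL2 was lower (-1.73, SE 0.64, adjusted p = 0.0357, or 0.0566 with no filter on low counts), 2 calls of 10 beside 37.1% of all genes called in either direction.

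During maturation from GV to MII oocytes, 2 of 10 members changed in the transcriptome, beside 17.1% of all genes. ASZ1 rose by 1.56 on the log2 scale (SE 0.49, adjusted p = 0.0271) and PLD6 fell by 1.96 (SE 0.52, adjusted p = 0.00839). The 3 MII libraries of ASZ1 lay above all 3 GV libraries, and those of PLD6 below all 3. The rise of ASZ1 was lost when library totals were used without TMM factors (1.14, adjusted p = 0.126) and when any one of 5 libraries was left out, GV A, B or C or MII A or C (adjusted p between 0.0509 and 0.103). The summed level of 6 cumulus or granulosa markers (FSHR, CYP19A1, HAS2, PTX3, TNFAIP6 and AMH), none of them at 0 in either stage, moved with the same interval, from 31.8 to 43.0 CPM in GV transcriptomes to 265 to 345 in MII transcriptomes, and its part in these 2 changes was not tested.

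From MII oocytes to 2-cell embryos none of the 10 members was called by edgeR, beside 12% of all genes, and 2 members had an unadjusted p below 0.05. ASZ1 (-1.30, adjusted p = 0.0843) and MAEL (-0.94, adjusted p = 0.152) had the largest negative estimates. From 8-cell embryos to morulae PLD6 alone rose, by 2.48 (SE 0.55, adjusted p = 0.00298), beside 14.4% of all genes called. From morulae to blastocysts PLD6 fell by 3.08 (SE 0.63, adjusted p = 0.000845) and ASZ1 by 1.64 (SE 0.50, adjusted p = 0.0193), beside 21.6% of all genes. The fall of ASZ1 missed the threshold without morula replicate B (-1.54, adjusted p = 0.0577) or blastocyst replicate B (-1.39, adjusted p = 0.0977).

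In the polysome pools, PIWIL1 was the 1 member called from GV to MII oocytes, beside 5.37% of all genes. It was at 1.41 and 1.97 CPM in GV pools and had no read in MII pools, at least 15.7-fold lower, and it was back at 0.751 and 2.31 CPM in 2-cell pools, at least 14.2-fold higher and again the 1 call of 10 beside 8.51% of all genes. Both calls rest on 129 reads in GV and 102 in 2-cell pools. They were lost without MII polysome replicate B (adjusted p = 0.0563 and 0.0617), the first also without MII polysome replicate A (adjusted p = 0.0531), and both when pools were fitted in a model of their own (adjusted p = 0.573 and 0.435).

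Between 8-cell embryos and morulae, 3 members rose in polysomes, beside 36.2% of all genes called in either direction. ASZ1 went from 0 and 0.217 CPM to 7.95 and 17.97 (log2 fold change 6.66, SE 0.81, adjusted p = 2.34e-06). TDRKH went from 0.041 and 1.17 CPM to 9.93 and 15.6 (4.31, SE 0.73, adjusted p = 0.000101). PLD6, the third, went from 64.1 and 67.2 CPM to 325 and 314 (2.28, SE 0.62, adjusted p = 0.00654). In all 3 the pools of the 2 stages did not overlap, which with 2 pools against 2 is no support beyond the calls themselves. From morulae to blastocysts PIWIL3 was called, beside 13.9% of all genes, but its morula pools stood at 0 and 1.84 CPM and its blastocyst pools at 0. This is at least 7.13-fold lower on the mean and rests on gradient B of morulae alone, without which both groups are at 0, and it was lost without either blastocyst pool and in the separate model of pools (adjusted p = 0.369).

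Polysome and transcriptome changes were compared in 1 model, as a test of the difference between them. From GV to MII oocytes 2 of 10 members differed, beside 10.6% of all genes. PLD6 fell in the transcriptome while its pools stood at 327 and 341 CPM in GV and at 489 and 566 in MII oocytes, and the difference of the log2 changes was 2.62 (SE 0.79, adjusted p = 0.034). That call was lost, with estimates between 2.51 and 2.70, when any one of 9 of the 30 libraries was left out (adjusted p between 0.0543 and 0.136), namely each GV or MII library other than transcriptome B of GV oocytes. PIWIL1 differed as well, since its transcriptomes held 6.07, 6.08 and 9.04 CPM in MII oocytes while its pools held none, and from MII oocytes to 2-cell embryos it was again the 1 member called, beside 1.81% of all genes. The latter call was lost with the letter as a block (adjusted p = 0.0514) and without any one of 7 of the 10 MII and 2-cell libraries, all but MII transcriptomes A and B and 2-cell pool A (adjusted p between 0.0522 and 0.107).

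From 2-cell to 8-cell embryos ASZ1 was the 1 member that differed, beside 12.2% of all genes, with a polysome fall larger than the transcriptome fall by 4.41 on the log2 scale (SE 0.88, adjusted p = 0.00224). From 8-cell embryos to morulae ASZ1 (5.35, SE 0.89, adjusted p = 0.000409) and TDRKH (3.51, SE 0.86, adjusted p = 0.00888) rose more in polysomes than in the transcriptome, 2 of 10 beside 12.5% of all genes. From morulae to blastocysts none of the 10 was called by edgeR, beside 12.3% of all genes, although 4 had an unadjusted p below 0.05. The 3 differences of ASZ1 and TDRKH held when any single library was left out and under every alternative test, scaling and filter tried. Their sizes are uncertain, since the 8-cell pools held 0 and 8 reads of ASZ1 and 1 and 43 of TDRKH.

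Polysome pools were next set against the transcriptome of the same stage, where an adjusted p below 0.05 made a call. The members gave 30 calls in 60 tests, 8 higher in polysomes and 22 lower. PLD6 was higher at all 6 stages. In GV oocytes its pools were at 327 and 341 CPM (log2 fold change 3.47, SE 0.56, adjusted p = 2.53e-05), and in MII oocytes at 489 and 566 (6.10, SE 0.63, adjusted p = 1.41e-08). The 2-cell pools were at 263 and 305 CPM (4.17), the 8-cell pools at 64.1 and 67.2 (4.98), the morula pools at 325 and 314 (4.79) and the blastocyst pools at 156 and 142 (6.76, SE 0.69, adjusted p = 6.44e-08). These 6 calls held with any library left out.

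**Figure D3:**
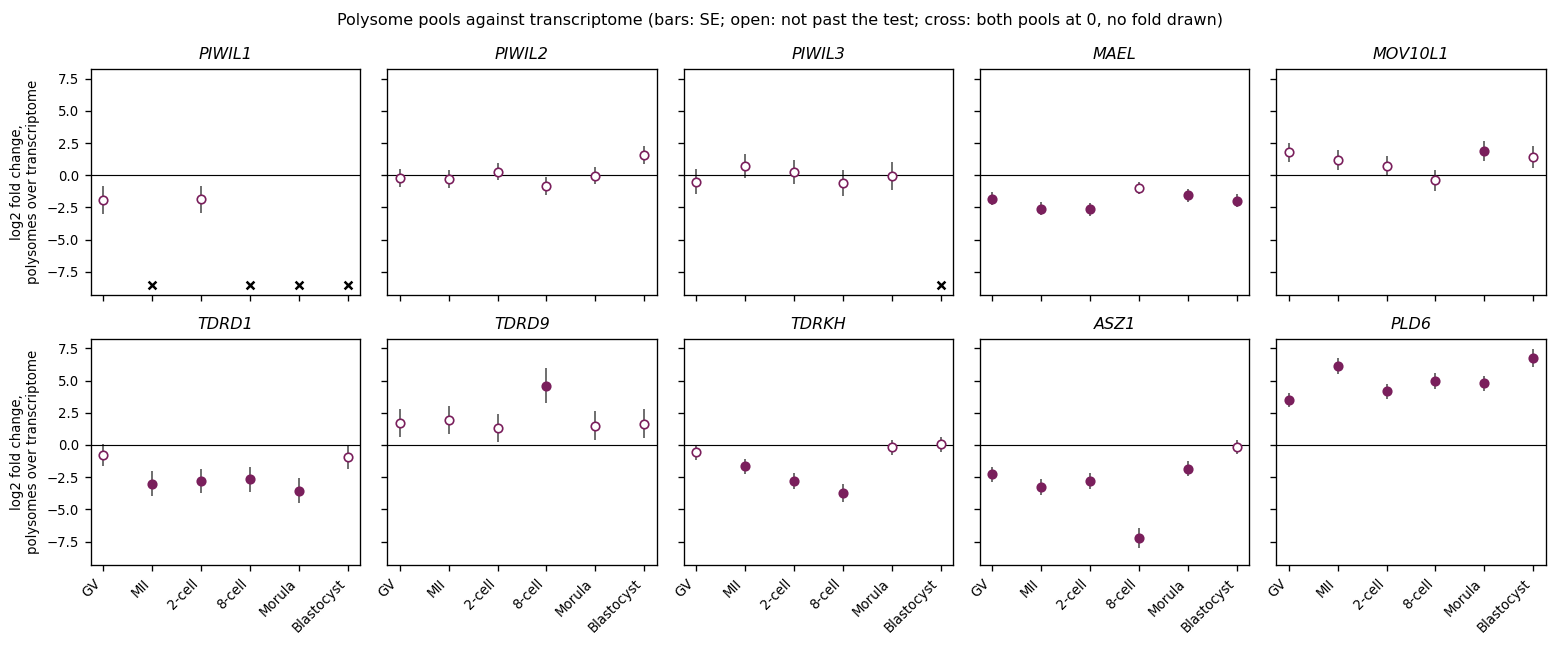
Log2 fold change of polysome pools (F8 to F10, n = 2) over transcriptomes (n = 3) at each stage for the 10 genes, with standard errors as bars, filled points where the adjusted p was below 0.05, and a cross at the foot of a panel where both pools were at 0. PLD6 lies between 3.47 and 6.76 at all stages, and MAEL lies below 0 at all stages, between -0.99 and -2.65.

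MAEL was lower in polysomes at 5 of 6 stages. Its GV pools were at 278 and 242 CPM (log2 fold change -1.82, SE 0.49, adjusted p = 0.0046) and its MII pools at 193 and 239 (-2.61, SE 0.51, adjusted p = 0.000131), both well under the 863 to 1379 CPM of the 6 oocyte transcriptomes. In 8-cell embryos the pools were at 44.3 and 5.75 CPM and the test was not passed (-0.99, SE 0.48, adjusted p = 0.0754). The GV, morula and blastocyst calls of MAEL were each lost without the B pool of that stage (adjusted p = 0.0569, 0.0679 and 0.0542).

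ASZ1 was lower in polysomes at every stage but the blastocyst, where its pools of 8.01 and 18.9 CPM lay around the transcriptome level of 9.95 to 17.9 (log2 fold change -0.17, SE 0.55, adjusted p = 0.841). Its estimates from GV oocytes to morulae were -2.27, -3.25, -2.80, -7.21 and -1.86, and the last was lost without morula pool A (-1.41, adjusted p = 0.097). The 8-cell pools of ASZ1 held 0 and 8 reads, near the detection limit, so the size of -7.21 is uncertain. TDRD1 was lower from MII oocytes to morulae, between -2.67 and -3.55, and TDRKH from MII oocytes to 8-cell embryos, at -1.66, -2.81 and -3.69. Without MII pool A or B, TDRKH in MII oocytes had an adjusted p of 0.0659 or 0.11. TDRD1 lost its calls without MII pool A (adjusted p = 0.0759), 2-cell pool B (adjusted p = 0.147) or 8-cell pool B (adjusted p = 0.144). In GV oocytes, TDRD1 was at 49.1 and 50.6 CPM in pools (-0.80, adjusted p = 0.479) and TDRKH at 150 and 171 (-0.56, adjusted p = 0.459).

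The PIWI family split in this comparison. PIWIL2 was not called at any stage, with estimates from -0.86 in 8-cell embryos to 1.55 in blastocysts (adjusted p = 0.0757 at the lowest). PIWIL3 was not called from GV oocytes to morulae, with estimates from -0.61 to 0.73, and in blastocysts it had no read in either pool beside 15 reads in the 3 transcriptomes, at least 9.48-fold lower. PIWIL1 had no read in the MII pools, at least 65.6-fold lower than the transcriptome mean of 7.06 CPM. It had none in the 8-cell pools beside 10 reads in the transcriptomes, at least 2.85-fold lower if their mean is taken as exact. That transcriptome mean of 0.291 CPM stood near its own floor of 0.262, so the size is uncertain. In morulae and blastocysts PIWIL1 passed the test as well, on 5 and 4 transcriptome reads, too few for a fold. These 2 calls and that of PIWIL3 in blastocysts were lost without either pool of their stage (adjusted p between 0.0515 and 0.109), and PIWIL1 in morulae also without transcriptome A. In GV oocytes its pools of 1.41 and 1.97 CPM lay below the transcriptomes of 6.07 to 6.77 (-1.92, SE 1.07, adjusted p = 0.159).

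Among the helicases, TDRD9 was higher in 8-cell polysomes (log2 fold change 4.60, SE 1.35, adjusted p = 0.00557), with 11 and 306 reads in the pools and 6 in the transcriptomes. Without 8-cell pool B the estimate was 1.34 (adjusted p = 0.461). MOV10L1 was higher in morulae (1.89, SE 0.79, adjusted p = 0.0484), at 4.29 and 6.76 CPM in pools and 0.747 to 1.88 in transcriptomes, and this call was lost without any one of 26 of the 30 libraries. Its GV pools of 55.4 and 64.4 CPM lay above the transcriptomes of 13.7 to 19.7 without passing the test (1.78, adjusted p = 0.0666).

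Read stage by stage against all genes, the members called higher were 1 at GV (22.2% of all genes), 1 at MII (30.8%), 1 at 2-cell (29.1%), 2 at 8-cell (28.0%), 2 at morula (26.5%) and 1 at blastocyst (20.0%). Those called lower were 2 at GV (17.7%), 5 at MII (26.7%), 4 at 2-cell (21.9%), 4 at 8-cell (31.0%), 4 at morula (25.2%) and 3 at blastocyst (20.1%). The members' median log2 fold change lay between -0.98 and 0.055 over the stages, with PIWIL1 and PIWIL3 at their bounds or left out where no fold can be given, and that of all genes between -0.26 and 0.18.

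The offsets of PLD6 and MAEL were also present outside the polysome fractions, and those of PIWIL1, ASZ1, TDRD1 and TDRKH were so in part. In single fractions, on CPM scaled over transcriptomes and fractions together, PLD6 lay above all 3 transcriptomes in 20 of 20 libraries at GV and at MII, and in 18, 19, 18 and 16 of 20 at the 4 embryo stages in order. In GV oocytes its F1 and F2 libraries were at 398, 762, 655 and 706 CPM against 29.2 to 38.4 in the transcriptomes. MAEL lay below all 3 transcriptomes in 20 of 20 libraries at every stage but the 8-cell stage, where 18 did. ASZ1 lay below all 3 in 20, 20, 20, 18 and 20 of 20 libraries from GV oocytes to morulae. For TDRD1 the counts were 20, 20, 19, 19 and 18, and in blastocysts both had 15. TDRKH lay below in 20 of 20 at the GV, MII and 2-cell stages, and in 15 at each later stage. PIWIL1 lay below in 19, 20 and 18 of 20 at the GV, MII and 2-cell stages. Of the 20 libraries, 4, 11 and 7 held at most 3 counts of PIWIL1 at these 3 stages. With F3 to F5 pooled in place of F8 to F10, a comparison added after these values were seen, PLD6 was higher and MAEL lower than the transcriptome at all 6 stages. With F1 and F2 pooled, PLD6 was higher at 5 stages and MAEL lower at 6. PIWIL1 was called lower at 3 stages with F3 to F5 and at 3 with F1 and F2. With F3 to F5, ASZ1, TDRD1 and TDRKH were called lower at 3, 5 and 0 stages. With F1 and F2 the counts were 4, 3 and 4. The share of all genes called with these pools, or lying outside the transcriptomes in single fractions, is not given here. These counts therefore describe the named members only and cannot be set against other genes.

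For other members the comparison with the transcriptome was also run with F3 to F5, and the direct test of F8 to F10 against F3 to F5, given below, called none of them from GV oocytes to morulae. With F3 to F5 pooled, PIWIL3 was higher than the transcriptome in 8-cell embryos (log2 fold change 2.75, adjusted p = 5.78e-05) and morulae (2.26, adjusted p = 0.0012), where its polysome estimates were -0.61 and -0.07. TDRD9 was higher in F3 to F5 than in the transcriptome at 4 stages, from GV oocytes to 8-cell embryos, and its F8 to F10 pools lay above all 3 transcriptomes in GV oocytes (72.2 and 87.0 CPM), MII oocytes (42.0 and 36.1) and 2-cell embryos (24.5 and 37.1) without passing the test. Its F3 to F5 estimates were 2.79 to 6.50 on the log2 scale at those 4 stages, and it was lower in F3 to F5 than in the transcriptome of morulae (-2.68, adjusted p = 0.00879) and of blastocysts, where F3 to F5 held no read.

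**Figure D4:**
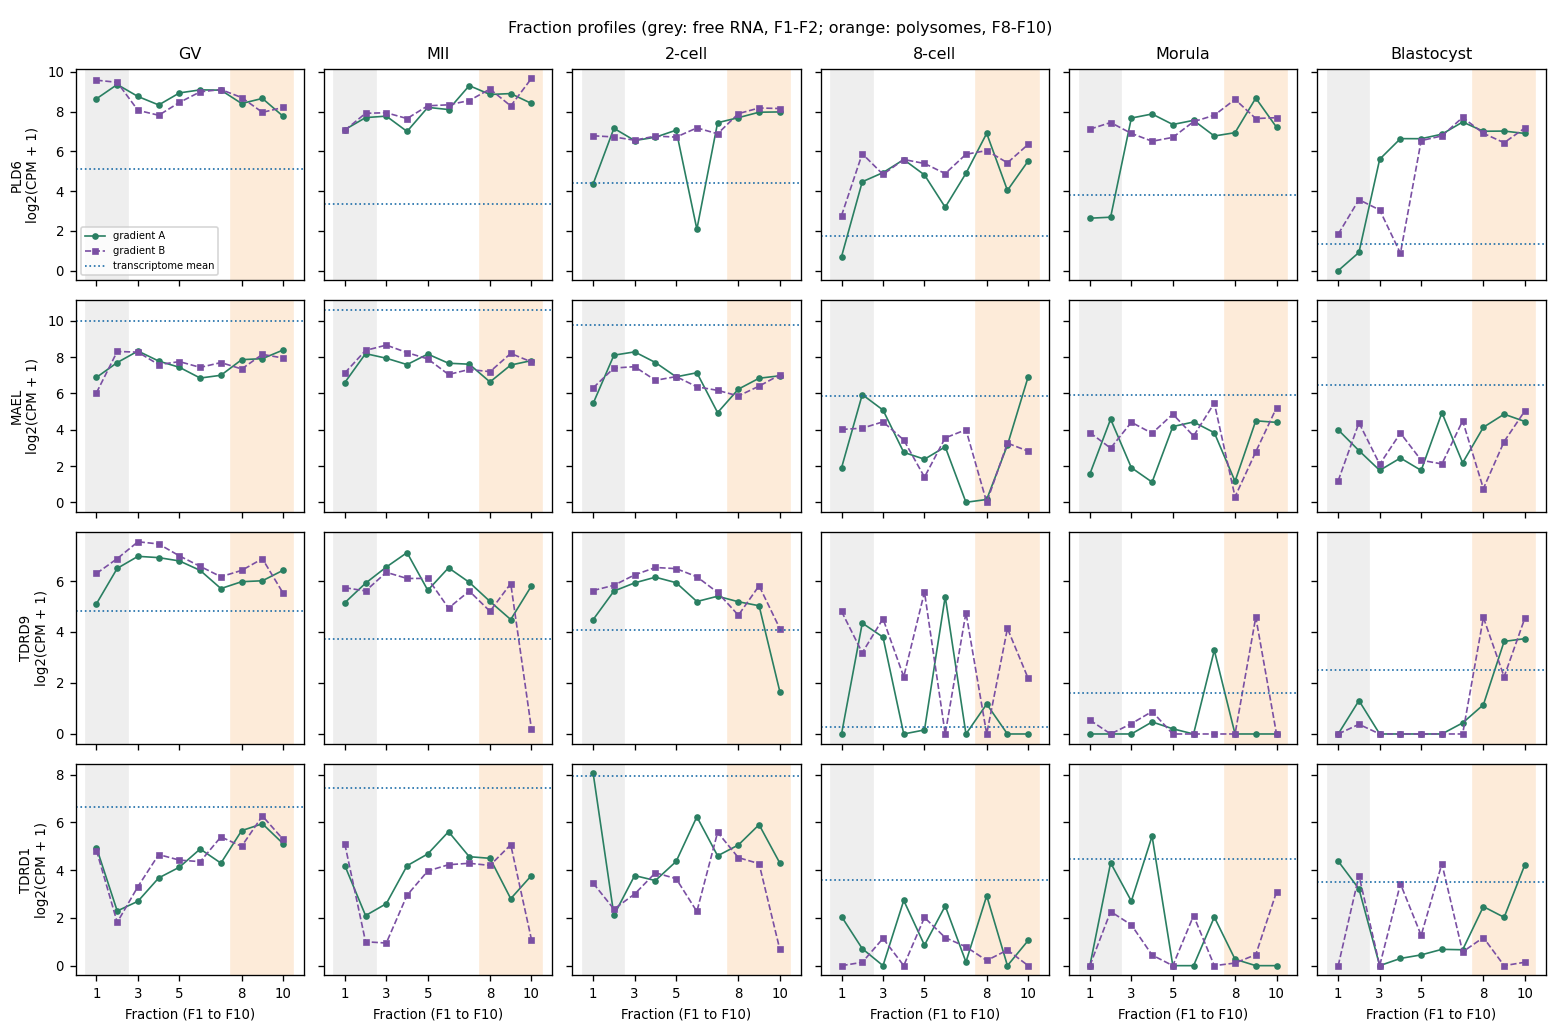
Fraction profiles of PLD6, MAEL, TDRD9 and TDRD1 at the 6 stages, as log2(CPM + 1) over fractions F1 to F10 for gradient A (green) and gradient B (violet), with the transcriptome mean as a dotted line and the free RNA and polysome fractions shaded. PLD6 runs above and MAEL below the dotted line in nearly every fraction, TDRD9 slopes down from F3 to F10 in GV and MII oocytes and 2-cell embryos, and profiles of TDRD9 and TDRD1 break up into isolated fractions from the 8-cell stage on.

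Within the gradients, the trend from F3 to F10 was measured by Spearman's rho over 16 libraries per stage, with a permutation test. These are serial fractions of 2 gradients that the test treats as independent, so its p-values do not measure the spread between gradients. In GV oocytes 3 of 10 members had a trend, beside 36.8% of the 11595 genes tested. TDRD1 rose towards heavier fractions (rho = 0.834, permutation test, adjusted p = 0.00125), from 5.49 and 8.94 CPM in F3 to 33.5 and 38.0 in F10. MOV10L1 rose too (rho = 0.604, permutation test, adjusted p = 0.0435, or 0.0526 with no filter on low values). TDRD9 fell (rho = -0.740, permutation test, adjusted p = 0.00778), from 124 and 185 CPM in F3 to 84.7 and 44.96 in F10.

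In MII oocytes 2 members had a trend, of 9 tested, beside 19.3% of all genes. PLD6 rose (rho = 0.787, permutation test, adjusted p = 0.00703), from 217 and 244 CPM in F3 to 338 and 810 in F10. The value of 810 is from gradient B, whose F10 library had the fewest genes with 5 counts of the MII fractions (5917, median 11569). In gradient A, F6 and F7 averaged 451 CPM and F8 to F10 426, so its F10 was not the peak. TDRD9 fell (rho = -0.734, permutation test, adjusted p = 0.0167). In 2-cell embryos 3 members had a trend, beside 20.3% of all genes. PLD6 rose (rho = 0.888, permutation test, adjusted p = 0.00229), from 92.0 and 93.0 CPM in F3 to 251 and 283 in F10, while TDRD9 (rho = -0.828, permutation test, adjusted p = 0.00448) and TDRKH (rho = -0.675, permutation test, adjusted p = 0.0318) fell. TDRD9 thus had a falling trend at each of the first 3 stages. With library totals and no TMM factors, TDRD9 in GV oocytes (rho = -0.556, permutation test, adjusted p = 0.0722) and TDRKH in 2-cell embryos (rho = -0.627, permutation test, adjusted p = 0.0527) were no longer called.

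None of the 9 members tested had a trend in 8-cell embryos, where 16.5% of all genes had one, or of the 9 tested in morulae, where 1.64% did, and PIWIL1 was below the minimum level at both stages. In blastocysts, where 7 members were tested and PIWIL1, PIWIL3 and MOV10L1 were not, TDRD9 rose towards heavier fractions (rho = 0.861, permutation test, adjusted p = 0.00223), beside 7.47% of all genes. It had no read in any of the 6 libraries of F3 to F5 there and was at 11.4 and 3.73 CPM in F9 and at 12.4 and 22.3 in F10. F8 to F10 averaged 8.32 CPM in gradient A and 16.3 in gradient B. Gradient B dipped in F9 and did not climb steadily. From gradient B alone, PLD6 and TDRKH were called in 2-cell embryos, beside 10% of all genes, and no member in GV oocytes, beside 16.7%. From gradient A alone, no member was called in GV oocytes, beside 6.41% of all genes, or in MII oocytes, beside 3.07%. The other single gradients of these 3 stages and of blastocysts gave no call for any gene, so they bear on no member. With F1 and F2 included, the trends of TDRD9 in GV and MII oocytes and 2-cell embryos and that of TDRKH were no longer called, with adjusted p between 0.155 and 0.743.

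Pooled F8 to F10 were finally tested against pooled F3 to F5 in an edgeR model of 24 pools, which gives the size of the difference. None of the members was called in GV oocytes (0.498% of all genes), MII oocytes (0.437%), 2-cell embryos (0%), 8-cell embryos (9.35%) or morulae (1.59%), although 0, 2, 1, 3 and 1 of the 10 had an unadjusted p below 0.05 at these stages. In blastocysts TDRD9 was the 1 member called, beside 1.43% of all genes, with 687 reads in F8 to F10 and 0 in F3 to F5, at least 60.7-fold higher (adjusted p = 0.0454). That call was lost without TMM factors and without any one of 8 of the 12 gradients, both of GV oocytes, MII oocytes, 2-cell embryos and blastocysts. With the gradient as a block, TDRKH in 8-cell embryos was called as well, lower in F8 to F10 by 4.12 on the log2 scale (adjusted p = 0.0161, against -3.85 and 0.0647 without the block). Over the 60 tests of a member at a stage, the likelihood ratio test gave 6 calls and DESeq2 7, against 1 by the quasi-likelihood test, while between 0.148% and 21.4% of all genes were called at a stage by the likelihood ratio test and between 1.37% and 24.2% by DESeq2. DESeq2 called PIWIL3 lower in F8 to F10 of 8-cell embryos (-3.58, adjusted p = 0.0416). PLD6 had a difference of 1.04 in MII oocytes (SE 0.46, adjusted p = 0.496) and 1.23 in 2-cell embryos (SE 0.46, adjusted p = 0.734), so the trends above were not called as a difference of pools.

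Of 24 other piRNA pathway genes listed, 21 were in the table and 20 in the model. From 2-cell to 8-cell embryos, 7 of the 20 fell and 3 rose in the transcriptome, and the median log2 fold change was -0.025, against -4.01 for the members. Of all 14612 genes, 3427 (23.5%) were called lower and 3887 higher. In polysomes 9 fell and 4 rose, with a median of -2.33, beside 3685 (25.2%) of all genes called lower and 3074 called higher. The 6 with the highest mean level over the stages were GTSF1, HENMT1, PNLDC1, STK31, TDRD7 and TDRD5. PNLDC1, the exonuclease that trims piRNA ends, fell by 4.80 (SE 0.51, adjusted p = 3.9e-08), from a mean of 344 CPM to 12.3. The Tudor-domain genes TDRD5 and TDRD7 fell by 5.34 (SE 0.47, adjusted p = 3.87e-09) and 3.63 (SE 0.87, adjusted p = 0.0014).

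The other 3 of those genes did not pass the test over this interval. HENMT1, the methyltransferase that modifies piRNA ends, had a mean of 231 CPM in 2-cell and 262 CPM in 8-cell embryos (log2 fold change 0.18, SE 0.62, adjusted p = 0.823). GTSF1, a zinc finger cofactor of PIWI proteins, went from 171 to 213 CPM (0.31, SE 0.37, adjusted p = 0.492), and STK31, a kinase with a Tudor domain, from 250 to 95.8 (-1.38, SE 0.86, adjusted p = 0.184). All 3 were lower in blastocysts than in GV oocytes, by 3.72 (adjusted p = 8.81e-05), 2.92 (adjusted p = 1.34e-06) and 5.04 (adjusted p = 0.000226) for HENMT1, GTSF1 and STK31.

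**Figure D5:**
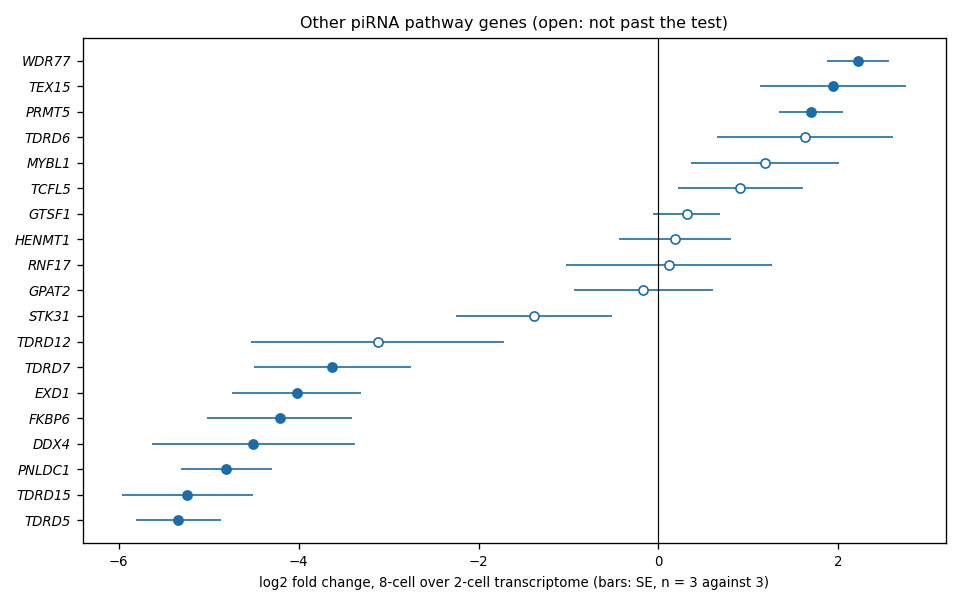
Log2 fold change of the transcriptome from 2-cell to 8-cell embryos (x axis, bars are standard errors, 3 against 3 libraries) for the 19 other piRNA pathway genes with more than 10 reads over both stages, ordered by value, with open points where the test was not passed. Values run from -5.34 for TDRD5 to 2.22 for WDR77, and the 3 filled points above 0 are WDR77, TEX15 and PRMT5.

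Across the 18 transcriptomes, Pearson's r of log2(CPM + 1) between 2 members ranged from 0.549 to 0.971 over the 45 pairs, with a median of 0.809. All pairs share the same libraries and the same step between 2-cell and 8-cell embryos. Over all genes, the profile most like that of MAEL was PNOC (r = 0.981), followed by TVP23A and RFX6, and those most like TDRKH were CORO6 (r = 0.979), WDFY2 and CLP1. For PIWIL3 the most alike gene was PNLDC1 (r = 0.993), for PIWIL1 UPP2 (r = 0.986), for TDRD1 CRNKL1 (r = 0.981) and for MOV10L1 MGC133764 (r = 0.989). For TDRD9 it was SLC6A20 (r = 0.980), for ASZ1 APIP (r = 0.973), for PIWIL2 ZC2HC1C (r = 0.951) and for PLD6 SNX22 (r = 0.945).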

How the data were processed

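The authors prepared Smart-seq libraries from fractions and from whole oocytes or embryos, estimated the reads of each gene with Salmon and deposited 1 table of expected counts for 138 libraries and 16706 gene symbols, with no normalization. The methods of the study name the Ensembl annotation ARS-UCD1.2 and the submitters' processing notes name UMD3.1, and the Salmon version is not given in the sources used here. Coordinates were used only to find genes that overlap the members, and no sequences were used. Of the deposited values, 11.7% are not whole numbers.

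Counts were rounded and tested with edgeR 4.0.16 (R 4.3.3) by the quasi-likelihood test, after filterByExpr and TMM scaling, in 1 model of 18 transcriptomes and 12 pools of F8 to F10 (14612 genes), and in a second model of 24 pools of F8 to F10 and F3 to F5 (14873 genes). All tests were two-sided, and Benjamini-Hochberg adjustment ran over all genes of a model. A standard error is the log2 fold change over the root of F. The trend was Spearman's rho on CPM over F3 to F10 with 100000 permutations of the fraction labels, adjusted over genes whose mean CPM reached 1. Nothing states that replicates came from separate animals beyond the study calling them biological, so p-values measure the spread between these libraries. Of 78 pairs of replicate libraries, 0 held identical values. A level of 0 allows up to 3 counts per transcriptome or per summed pool, and such floors cover counting error only. Computation also used limma 3.58.1, DESeq2 1.42.0, Python 3.11.15, numpy 2.4.6, pandas 2.3.3, scipy 1.17.1 and matplotlib 3.10.9. The procedures were tested on simulated data.

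The members, the list of other pathway genes and the marker lists were chosen with earlier results of these data known. All 10 members are named, and of the other pathway genes the 6 with the highest mean transcriptome level. The most alike genes were those with the highest Pearson's r over the 18 transcriptomes, 3 for each of MAEL and TDRKH and 1 for each other member. Light and heavy pools of a gradient share their lysate, which makes them pairs, with correlations between -0.0774 and 0.169 of their A minus B differences. Letters of transcriptomes and gradients gave correlations between -0.0652 and 0.00955 and were not treated as pairs. Alternatives covered the test, scaling, filter, model, replicate block, fractions used and each library left out.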

Additional observations from a re-analysis of the deposited data

Results flagged for a closer look

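Changes in polysomes and in the transcriptome differed by the interaction test for PLD6 from GV to MII oocytes (2.62 on the log2 scale), for ASZ1 from 2-cell to 8-cell embryos (-4.41) and from 8-cell embryos to morulae (5.35), and for TDRKH from 8-cell embryos to morulae (3.51). The values of ASZ1 and TDRKH rest on 8-cell pools near the detection limit. PIWIL1 was marked from GV to MII oocytes and from MII oocytes to 2-cell embryos, with fitted values of -8.07 and 8.12 that depend on the prior count, since both MII pools were at 0, and give no size of the difference.

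The members also gave reads in F1 and F2, the free RNA fractions that the trend leaves out. Of the 24 libraries of F1 and F2, more than 3 counts were found in 22 for MAEL, 20 for PLD6, 19 for PIWIL3 and for TDRD1, 16 for TDRD9, 15 for PIWIL2, MOV10L1 and ASZ1, 14 for TDRKH and 9 for PIWIL1.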

How the results depend on the processing

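Scaling by library totals moved the median log2 fold change of all genes by between -0.344 and 0.465, and RLE factors by between -0.240 and 0.119, and no called direction of a member turned under either. Calls of members between consecutive stages numbered 14 in the transcriptome and 22 when transcriptomes were fitted in a separate model. The shares of all genes called there, and with a library left out, are not given here. Tests above that were not passed in the transcriptome are therefore results of the joint model only. In polysomes such calls numbered 15, and 6 in a separate model. There, the members lower from 2-cell to 8-cell embryos numbered 3 in place of 9, and 6.95% of all genes in place of 25.2%. Leaving out each library gave 13 to 17 calls in the transcriptome, 13 to 20 in polysomes, 27 to 34 for polysomes against transcriptome and 4 to 14 for the difference of changes, the last at 6 with all libraries and at 10 without morula polysome replicate B and 14 without 8-cell polysome replicate B. Trends were called 9 times with both gradients and 2 and 0 times with gradient A or B left out, where at several stages no gene at all was called from 8 libraries, so this count says nothing of the members there. F8 to F10 against F3 to F5 gave 1 call, 6 by the likelihood ratio test, 7 by DESeq2, 0 without TMM factors, 2 with the gradient as a replicate block and 0 to 4 with a gradient left out. The letter as a replicate block gave 14, 15, 29 and 5 calls where 14, 15, 30 and 6 were made without it for transcriptome, polysomes, polysomes against transcriptome and the difference of changes. It ended the calls of MOV10L1 in morula polysomes against transcriptome and of PIWIL1 from MII oocytes to 2-cell embryos.

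Signs turned where a pool of few reads was left out. From 8-cell embryos to morulae in polysomes, MAEL ranged from -1.26 without 8-cell pool B to 1.68 without 8-cell pool A (-1.39 to 1.55 for the difference of changes), PIWIL3 from -7.89 without morula pool B to 7.08 without 8-cell pool B, TDRD1 from -3.82 without morula pool B to 2.45 without 8-cell pool A, and TDRD9 from -9.26 without morula pool B to 3.54 without 8-cell pool B. TDRD9 in morula polysomes against transcriptome ranged from -8.05 without morula pool B to 2.47 without pool A. None of these 6 was called with all libraries, and the cause was not tested. With F3 to F5 set against the transcriptome in place of F8 to F10, chosen after seeing the data, the sign turned in 10 of 60 values, 8 of them called in either pool, which were in 8-cell embryos for MOV10L1 (2.57), PIWIL3 (2.75) and TDRKH (0.0996), in morulae for PIWIL3 (2.26) and TDRD9 (-2.68), and in blastocysts for MOV10L1 (-7.01), PIWIL2 (-5.55) and TDRD9 (-9.35). With F1 and F2 it turned in 15 values, 8 of them called in either pool, which were those of PIWIL3 in 8-cell embryos (1.89), of MOV10L1 (-4.42), PIWIL3 (3.16) and TDRD9 (-3.88) in morulae, and of PIWIL1 (2.77), PIWIL3 (1.33), TDRD9 (-2.80) and TDRKH (-10.6) in blastocysts. With all 10 fractions it turned in 4 values, 3 of them called in either pool, which were those of MOV10L1 (1.13) and PIWIL3 (1.67) in 8-cell embryos and of PIWIL3 (1.66) in morulae. Such values against a pool without reads depend on the prior count.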
